A study of Homo sapiens with 4 samples.

Results

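Epithelial cells hold together through tight junctions, desmosomes and adherens junctions, and genes of these junctions were read here in a pair of human lung adenocarcinoma lines in which the mitochondrial adenylate kinase AK4 had been altered. A list of 35 genes was taken by name, and every probe set annotated with 1 of these symbols alone was read on all 4 arrays. Of the 35 genes, 32 had such a probe set, out of 19775 genes on the array, and they were covered by 69 probe sets. The other 3 genes were not read: the catenin CTNND1 and the splicing factor ESRP2 shared their probe sets with another gene symbol, and the junctional adhesion molecule F11R had no named probe set.

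CL1-0 is an adenocarcinoma line and CL1-5 was derived from it by selection for invasiveness, and the labels give alveolar type II cells as the cell type of both. The CL1-0 cultures held either a control vector or an AK4 expression vector. The CL1-5 cultures held either a non-silencing shRNA vector or a vector for an shRNA against AK4. All 4 cultures were stably transduced and were kept under puromycin for 2 weeks, and whether the selected cells were pools or clones is not given in the sources used here. Each of the 4 groups was 1 array, which leaves every value without replicate error and every difference without a test. With 1 array a group, the precision of each ratio could not be estimated. Signals are scaled linear intensities, and they are listed in the order CL1-0 control vector, CL1-0 labelled AK4 vector, CL1-5 non-silencing shRNA, CL1-5 AK4 shRNA.

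Tight junctions seal the space between neighbouring cells through strands of claudins and occludin, which plaque proteins such as the zonula occludens protein TJP1 tie to actin. Desmosomes are spot welds in which desmogleins and desmocollins bridge cells and plakoglobin, plakophilins and desmoplakin anchor them to keratin filaments. Adherens junctions join cadherins to actin through catenins, and beta-catenin also acts in Wnt signalling. Carcinoma cells that take on mesenchymal traits are known to lose many of these proteins, and the transcription factors GRHL1 and GRHL2 and the splicing factors ESRP1 and ESRP2 are known to favour the epithelial state.

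The labels were checked first. All 4 AK4 probe sets were dimmer with AK4 shRNA in CL1-5, with log2 ratios between -1.25 and -0.88, but none was brighter on the CL1-0 array labelled AK4 vector, where they lay between -0.25 and -0.05. Directions taken from that array rest on its label. Of 10 alveolar type II markers with a probe set, between 7 and 9 lay above a floor of 6.93 that stands for the dim 40% of all values, with a summed signal of 555 to 682 in CL1-0 and 308 to 316 in CL1-5. SLC34A2 was under the floor on all 4 arrays, SFTPD on 3 and LAMP3 on both CL1-5 arrays. Leukocyte markers summed to between 29.3 and 37.7, with PTPRC and LYZ under the floor throughout. Fibroblast markers summed to between 105 and 152 and endothelial markers to between 47.9 and 135, and LUM, COL3A1, PDGFRA, CDH5, KDR and EMCN were under the floor on all arrays. Beta-actin, whose 3' probes outshine its 5' probes in degraded RNA, had a 3' to 5' ratio of 6.04 and 6.54 in CL1-0 and of 1.34 and 1.61 in CL1-5, so this measure moved with the line. The same ratio for GAPDH differed less, at 1.25 and 1.54 in CL1-0 and at 1.04 and 1.07 in CL1-5.

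Before any comparison, many of the junction genes were dim. On the probe set that stands for each gene, the one with the highest mean log2 level, 21, 22, 25 and 26 of 32 members lay above the floor, array by array. These shares of 65.6%, 68.8%, 78.1% and 81.2% stood beside 71.2%, 71.7%, 76.4% and 75.4% of all genes. In all, 19 members were above the floor on all 4 arrays, and 15 of the 69 probe sets were under it everywhere. In a bulk culture, fewer cells that express a gene and less of its RNA per cell cannot be told apart.

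The members under the floor on all 4 arrays were CLDN1, a barrier claudin, DSC3, a desmocollin of stratified epithelium, and GRHL2. CLDN1 read 3.35, 3.96, 3.51 and 2.79 on 218182_s_at, DSC3 read 4.36, 5.67, 3.05 and 2.60 on 206032_at, and GRHL2 read 3.12, 4.55, 4.07 and 3.76. All of these values lay in the dim range, where differences have no order. EPCAM, an adhesion protein of simple epithelia, read 3.97, 9.46, 3.92 and 2.79 and so passed the floor only on the CL1-0 array labelled AK4 vector. E-cadherin (CDH1), the cadherin of epithelial adherens junctions, also passed the floor on that array alone, at 3.94, 9.81, 5.51 and 5.81, whereas the mesenchymal filament vimentin (VIM) read 4957, 5297, 6742 and 6832. Other members near the floor were the claudin CLDN7 (4.63, 4.94, 6.14 and 8.07), the plaque protein CGNL1 (6.14, 10.2, 6.51 and 4.60), MARVELD2, which sits where 3 cells meet (4.44, 3.88, 8.22 and 8.57), and the plakin EVPL (5.07, 5.21, 8.98 and 7.90). Each of these passed the floor on only 1 or 2 arrays.

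**Figure D1:**
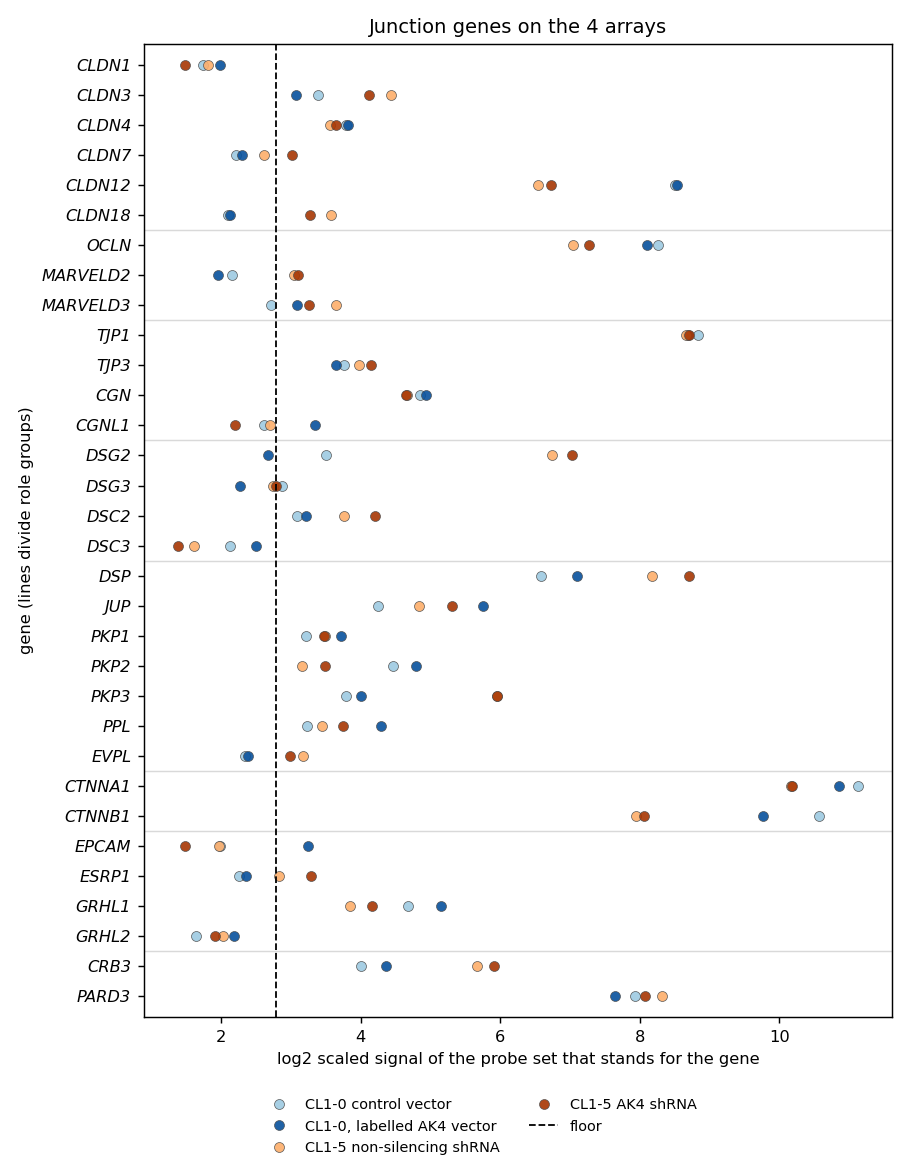
Scaled signal on the log2 scale for the 32 junction genes that could be read, 1 row per gene, with a point for each of the 4 arrays and the floor of 2.79 (log2) as a dashed line. Positions of different genes are not comparable, since each is a different probe set. Within a row, DSG2, DSP, PKP3 and CRB3 have both CL1-5 points at least 2-fold to the right of both CL1-0 points. CLDN12 and CTNNB1 have them at least 2-fold to the left.

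In CL1-0 the array labelled AK4 vector was set against the control vector array, a pair whose AK4 signals did not differ the way the label says. JUP and PPL, both of the desmosomal plaque, were the junction genes past 2-fold. The 6 measured genes of that plaque had ratios from 0.22 to 1.51, with a median log2 ratio of 0.51. A gene was taken as measured if either array of a comparison exceeded the floor. Of 24 measured junction genes, 2 (8.33%) were at least 2-fold higher, against 3.22% of all 14681 measured genes, and 0 were at least 2-fold lower, against 1.16% of all genes. The junction genes had a median of 0.11 with 15 above 0 and 9 below, and all genes had a median of 0.05 with 56.1% above 0. The control values of this comparison are also those of the comparison between the lines further on.

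Plakoglobin (JUP), which links desmosomal cadherins to desmoplakin and can replace beta-catenin at adherens junctions, read 19.1, 54.1, 28.5 and 39.8. The array labelled AK4 vector was the brightest of the 4 and the CL1-0 control the dimmest, and the CL1-0 ratio of 1.51 lay above 99.5% of all measured genes. Periplakin (PPL), a plakin of desmosomes and of the cornified envelope, read 9.36, 19.6, 10.9 and 13.4. Its CL1-0 ratio of 1.06, above 97.4% of genes, was that of a dim probe set, and it shrank to 0.23 under a floor set at the 60th percentile. Both genes had a single probe set, so no second reading of either stood beside it.

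Desmoplakin (DSP), which joins the desmosomal plaque to keratin filaments, read 96.1, 136.9, 290.7 and 419.6, all well above the floor. Its CL1-0 ratio was 0.51. The plakophilins, armadillo proteins that cluster desmosomal cadherins, had smaller or less certain ratios in CL1-0: 0.50 for PKP1, 0.34 for PKP2 and 0.22 for PKP3. The second probe set of PKP3, 209872_s_at, went the other way, with a ratio of -0.50 or below, and the mean of its probe sets was -0.14. Among the desmosomal cadherins, DSG2 was lower at -0.71, where its signal went from 11.3 to 6.34, under the floor, so the difference is at least that large.

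Beta-catenin (CTNNB1) had the most negative CL1-0 ratio of the list. Its bright probe set 201533_at read 1522, 873, 246 and 267, a CL1-0 ratio of -0.80 that lay above only 2.61% of genes. Another probe set of the same gene, 223679_at, read 28.2, 61.8, 27.5 and 32.4 and gave 1.13, the opposite direction. With the mean of its probe sets CTNNB1 was at -0.02. Alpha-catenin (CTNNA1), which couples beta-catenin to actin, was lower on all 5 of its probe sets, with ratios between -0.40 and -0.02.

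No tight junction gene passed 2-fold in CL1-0 on the probe set that stands for it. The bright probe set of TJP1, 202011_at, read 455, 414, 405 and 419, a ratio of -0.14 and a level that hardly differed among the arrays. The dimmer 214168_s_at read 61.0, 30.2, 96.4 and 85.0, which gave -1.01 in CL1-0, past 2-fold, but it does not stand for the gene. Occludin (OCLN) was at -0.16, the claudin CLDN12 at 0.02 and CLDN3 at -0.31, and the plaque proteins CGN and TJP3 were at 0.10 and -0.11. The second probe set of TJP3, 35148_at, was at 0.52, the opposite direction. The plaque protein CGNL1 was at no less than 0.55 and MARVELD3 at no less than 0.29, since their control signals lay under the floor. The regulator GRHL1 was at 0.48 and EPCAM at no less than 0.45, and the polarity genes CRB3 and PARD3 were at 0.35 and -0.28. As a yardstick, log2 ratios of different probe sets of 1 gene had a pooled SD of 0.41 in this comparison, which is not a replicate error. In CL1-0, 19 of the 24 measured genes kept their sign under every processing alternative that gave them a value, and CGN, CLDN12, CLDN4, PKP3 and TJP3 did not. Of 11 genes with several measured probe sets here, 5 had both signs: CTNNB1, MARVELD3, OCLN, PKP3 and TJP3. OCLN was at 0.25 on 209925_at and below 0 on its other probe sets, and MARVELD3 was at -0.21 on 233634_at.

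The comparison in CL1-5 asked how the same genes differ when AK4 is silenced. No junction gene passed 2-fold in either direction, beside 0.0914% of all 15321 measured genes that were higher by that measure and 0.0131% that were lower. Most of the list was slightly brighter with AK4 shRNA: 18 of 26 measured members, or 69.2%, had a ratio above 0, against 49.7% of all genes. The median was 0.14, against 0.00 for all genes, and the ratios ran from -0.39 to 0.53.

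DSP had the highest ratio of the list at 0.53, above 98.7% of all genes, and its 4 arrays kept the order in which both CL1-5 values exceed both CL1-0 values. JUP followed at 0.48, above 98.1% of genes. The splicing factor ESRP1 read 4.79, 5.14, 7.11 and 9.74, a ratio of 0.45 just over the floor, and the desmocollin DSC2 read 8.52, 9.28, 13.6 and 18.5, also 0.45. Both were dim, and under a floor at the 60th percentile DSC2 was at 0.15 and ESRP1 had no value. Smaller positive ratios were those of PKP2 (0.33), GRHL1 (0.32), PPL (0.30), DSG2 (0.28), CRB3 (0.24), OCLN (0.22) and CLDN12 (0.19). The sign of PKP2 is uncertain, since its second probe set gave -0.68.

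Lower with AK4 shRNA were MARVELD3, a membrane protein related to occludin, at -0.39, and the claudins CLDN3 at -0.32 and CLDN18 at -0.31. MARVELD3 read 6.54, 8.47, 12.5 and 9.53 on 239350_at and CLDN18 read 4.27, 4.35, 12.0 and 9.64 on 221133_s_at, so both lay near the floor. PARD3, a scaffold of cell polarity, was at -0.24 on its brightest probe set. Its sign is uncertain, since 221527_s_at gave 0.26 and the mean of its probe sets was -0.04. The catenins hardly differed, at 0.12 for CTNNB1 and 0.02 for CTNNA1, and TJP1 was at 0.05. The SD between probe sets of 1 gene was 0.22 here, and 20 of the 26 measured genes kept their sign under every alternative, CGN, CTNNA1, PKP1, PKP2, PKP3 and TJP1 being the exceptions. Of 14 genes with several measured probe sets here, 6 had both signs: CTNNA1, OCLN, PARD3, PKP1, PKP2 and TJP1.

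**Figure D2:**
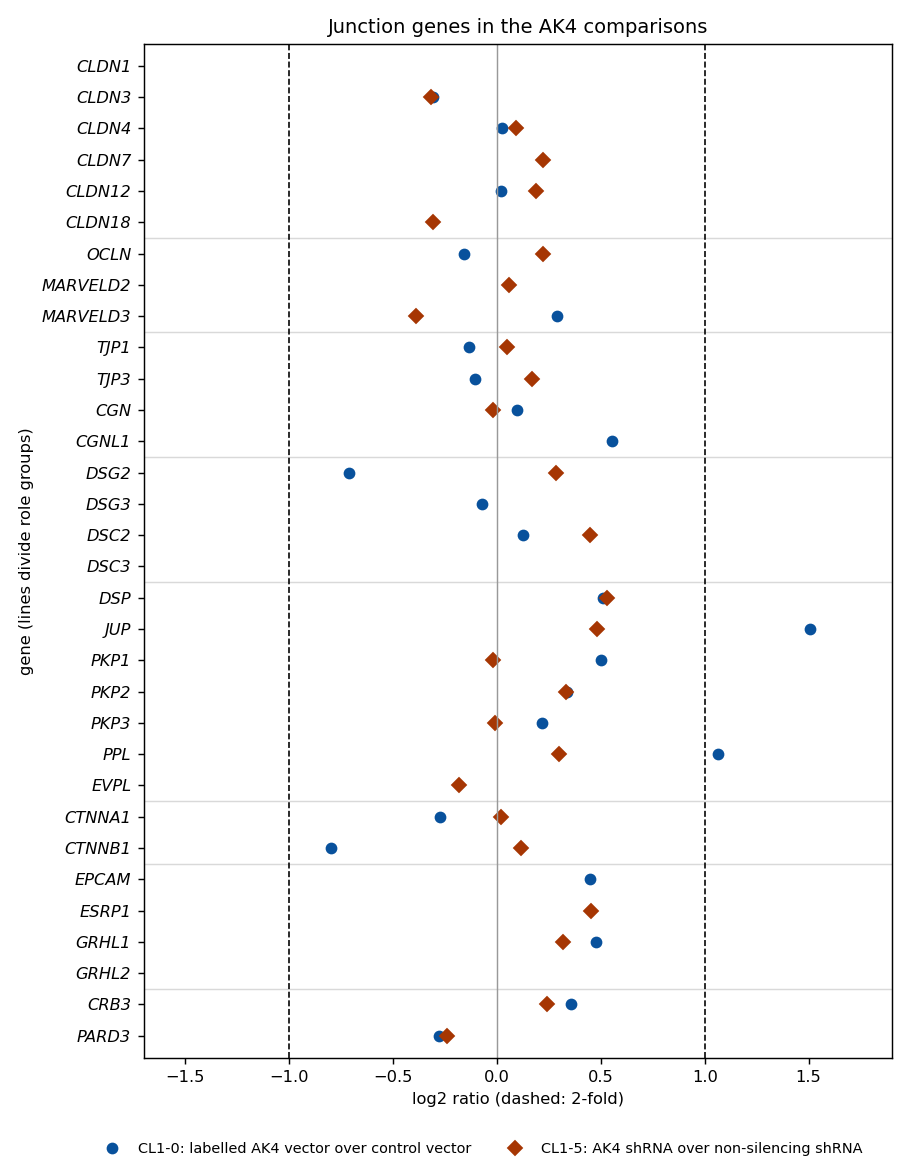
Log2 ratio of each junction gene in CL1-0 (circles, array labelled AK4 vector over control vector) and in CL1-5 (diamonds, AK4 shRNA over non-silencing shRNA), with 2-fold as dashed lines; a gene without a symbol was under the floor on both arrays. JUP at 1.51 and PPL at 1.06 are the points beyond 2-fold, both in CL1-0, and the CL1-5 points lie between -0.39 and 0.53.

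The AK4 comparisons share no array and were intended to move AK4 in opposite directions. Of 21 junction genes with a ratio other than 0 in both, 10 (47.6%) had opposite signs, against 46.0% of 13741 genes. A further 9 (42.9%) were higher in both, against 30.5% of genes, and 2 (9.52%) were lower in both, against 23.5%. The genes higher in both were CLDN4, CLDN12, DSC2, DSP, JUP, PKP2, PPL, GRHL1 and CRB3. Of these, CLDN4 and CLDN12 were each at 0.02 in CL1-0, and neither kept its sign there under every processing alternative. PKP2 did not keep its sign in CL1-5. DSP had nearly the same ratio in both lines, 0.51 and 0.53. Of the genes with opposite signs, 6 were lower on the CL1-0 array labelled AK4 vector and higher with AK4 shRNA (OCLN, TJP1, TJP3, DSG2, CTNNA1 and CTNNB1), and MARVELD3, CGN, PKP1 and PKP3 were the reverse. None of the 10 passed 2-fold in either line. In CL1-5, CGN and PKP1 were at -0.02, and at 0 in the values as deposited, and PKP3 was at -0.01. Their other probe sets lay further from 0 there. CGN was at -0.64 on 223232_s_at and at -0.33 with the mean of its probe sets. PKP1 was at 0.27 on 205724_at and PKP3 at -0.21 on 209872_s_at. Signs changed under an alternative for TJP3, CGN and PKP3 in CL1-0. The same held for TJP1, CTNNA1, CGN, PKP1 and PKP3 in CL1-5. Probe sets of both signs were read for OCLN in both lines, and for MARVELD3 and CTNNB1 in CL1-0.

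The control arrays of both lines were compared to describe the cells in which AK4 was altered. The desmosome genes DSG2, DSP and PKP3, the polarity gene CRB3 and the claudin CLDN3 were at least 2-fold higher in CL1-5. CLDN12, OCLN, CTNNB1 and the desmosome gene PKP2 were at least 2-fold lower. The other measured desmosome genes did not pass 2-fold, with DSC2 at 0.67, JUP at 0.58, EVPL at no less than 0.37, PKP1 at 0.27, PPL at 0.22 and DSG3 at -0.07, a value at the floor. Of 26 measured junction genes, 5 (19.2%) were at least 2-fold higher, near the 17.1% of all 15970 measured genes, and 4 (15.4%) were at least 2-fold lower, near the 14.2% of all genes. The list as a whole therefore did not stand apart in these shares, with a median of 0.23 against 0.13 for all genes. The other pair of arrays, CL1-5 with AK4 shRNA over CL1-0 labelled AK4 vector, was read as a companion and chosen after the values were seen. It gave 5 of 28 higher and 3 lower, against 14.7% and 14.8% of all genes.

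DSG2, the desmoglein of simple epithelia, read 11.3, 6.34, 107 and 131 on 217901_at. Both CL1-5 arrays were bright and both CL1-0 arrays were near or under the floor, a log2 ratio of 3.24 or 9.46-fold between the controls and of at least 4.24 between the other pair. Its second probe set, 1553105_s_at, read 5.03, 3.65, 45.1 and 57.5, with at least 2.70. The other desmosomal cadherins stayed dim in both lines: DSC2 was at 0.67, DSG3 read 7.28, 4.83, 6.68 and 6.90, and DSC3 was under the floor. Promoters of all 4 lie on chromosome 18 between positions 31042693 and 31498226 of GRCh38.p14, and DSG2 was the gene of that cluster past 2-fold.

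PKP3, a plakophilin, read 13.8, 16.0, 62.3 and 61.9 on 209873_s_at, a ratio of 2.18, with 1.58 on its second probe set. DSP had a ratio of 1.60 between the controls and 1.62 between the other arrays. CRB3, a transmembrane protein that organises the apical side of epithelial cells, read 16.1, 20.6, 50.7 and 59.9, with ratios of 1.65 and 1.54 in the same order. For DSG2, PKP3, DSP and CRB3 every CL1-5 array was at least 2-fold brighter than every CL1-0 array, as for 10.7% of 16261 genes. These 4 genes were past 2-fold between the controls under every scaling, floor and probe set rule that gave them a value. CLDN3, a barrier claudin, read 10.4, 8.41, 21.6 and 17.3 for 1.05, a call that depended on the processing. It was at 0.52 after quantile normalization, 0.43 after cyclic loess, 0.37 with the floor at the 60th percentile and 0.79 with the mean of its probe sets. With no floor it was at 0.99, and at 1.92 as deposited. Its second probe set, 203953_s_at, gave no less than 0.53.

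CLDN12 and CTNNB1 were the members at least 2-fold dimmer on every CL1-5 array than on every CL1-0 array, as 9.60% of genes were. The claudin CLDN12 read 363.7, 369.1, 92.8 and 105.5, a ratio of -1.97, and the arrays within a line hardly differed. CTNNB1 was at -2.63 on 201533_at, from 1522 to 246, while 223679_at was at -0.04 and the dim 1554411_at, under the floor in CL1-5, at -0.55 or below. OCLN read 307, 274, 132 and 155 on 227492_at for -1.21. Its dimmer probe set 209925_at read 17.1, 20.2, 31.3 and 35.9 for 0.88, and averaging its 4 probe sets put OCLN at -0.37.

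Several genes thus gave opposite answers on different probe sets. Of 16 junction genes with several measured probe sets in this comparison, 6 had all ratios above 0, 3 had all below and 7 had both signs. The share over all genes followed a stricter rule, which kept only probe sets that exceeded the floor on both control arrays. Of the 6259 genes that had more than 1 of these, 54.6% had them on 1 side of 0. The junction genes were counted with either array over the floor, so their counts cannot be set against that share. PKP2, a plakophilin, was at -1.31 on 207717_s_at (22.0, 27.7, 8.90 and 11.2) and at no less than 1.29 on 214154_s_at (5.36, 5.10, 17.0 and 10.6). For CTNNA1, 4 probe sets lay between -0.97 and -0.16, but 1558214_s_at read 34.2, 27.9, 323 and 321 for 3.24. PARD3 lay between 0.26 and 0.86 on 3 probe sets and at -2.36 on 221527_s_at, which read 86.6, 65.3, 16.9 and 20.3. CLDN4 was at -0.23 on 1569421_at and at no less than 1.5 on 201428_at, which read 4.91, 4.99, 19.5 and 22.9. Which transcripts these probe sets read is not given in the sources used here.

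**Figure D3:**
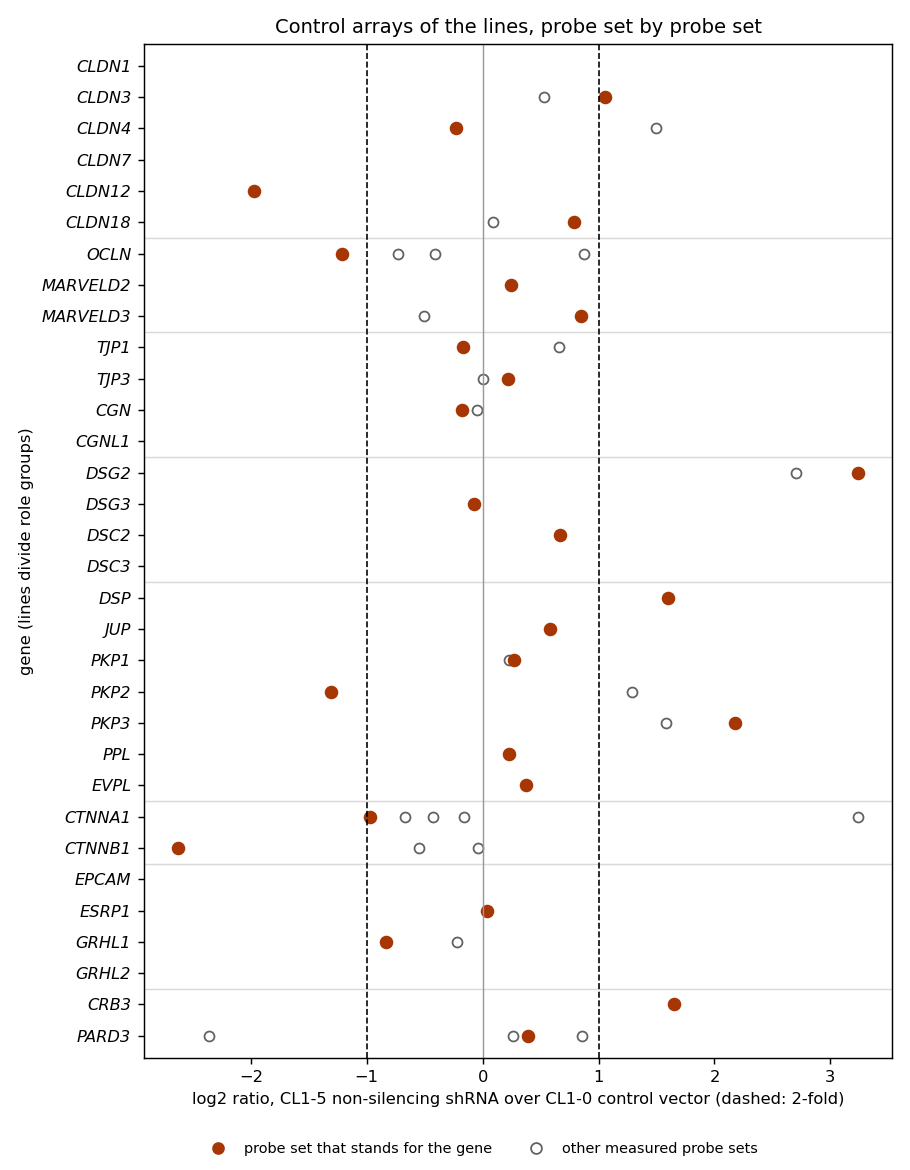
Log2 ratio of the CL1-5 non-silencing array over the CL1-0 control array for each measured probe set of each junction gene, with the probe set that stands for the gene filled, the others open, and 2-fold as dashed lines. DSG2 and PKP3 have both points beyond 2-fold on the higher side, whereas CTNNA1, PARD3, PKP2 and CLDN4 have points on both sides of 0.

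The differences between the lines came with other differences. Of the keratins, the filaments to which desmosomes attach, KRT18 and KRT8 were far brighter in CL1-5. KRT18 read 12.1, 10.8, 1681 and 1485 and KRT8 read 12.0, 10.2, 299 and 258. The other simple epithelium markers differed less: KRT7 was at 1.02, KRT19 near the floor at no less than 0.32, and CDH1 was under the floor on both control arrays. N-cadherin (CDH2), the cadherin of mesenchymal cells, was also higher in CL1-5, at 3.03, 3.53, 36.6 and 33.4, and ZEB1, a repressor of epithelial genes, read 247, 317, 163 and 198. Of the 6 mesenchymal markers, the matrix protein SPARC differed more, at 5.88, 4.49, 129.9 and 135.9, whereas the repressor ZEB2 was dimmer in CL1-5, at 37.7, 40.2, 3.24 and 3.10, and FN1 was at -0.18. Of the 7 endothelial markers, PECAM1 (2.66), CLDN5 (1.66) and TEK (1.12) were past 2-fold higher in CL1-5, VWF was at 0.11, and the others were under the floor. The part of these markers in the junction values was not tested. The part of the beta-actin 3' to 5' ratio, given above, in the junction values was not tested. The pooled SD between probe sets of 1 gene was 0.85 in this comparison. Without rescaling, the median ratio of all genes moved from 0.13 to 0.83, so ratios are given relative to the common scaling. Of all genes past 2-fold, 54.6% were higher in CL1-5 with the common scaling, 42.9% after quantile normalization and 90.4% without rescaling. Of the 26 genes, 16 kept their sign under every alternative with a value, and CGN, CLDN4, CTNNA1, DSG3, GRHL1, PARD3, PKP1, PPL, TJP1 and TJP3 did not.

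**Figure D4:**
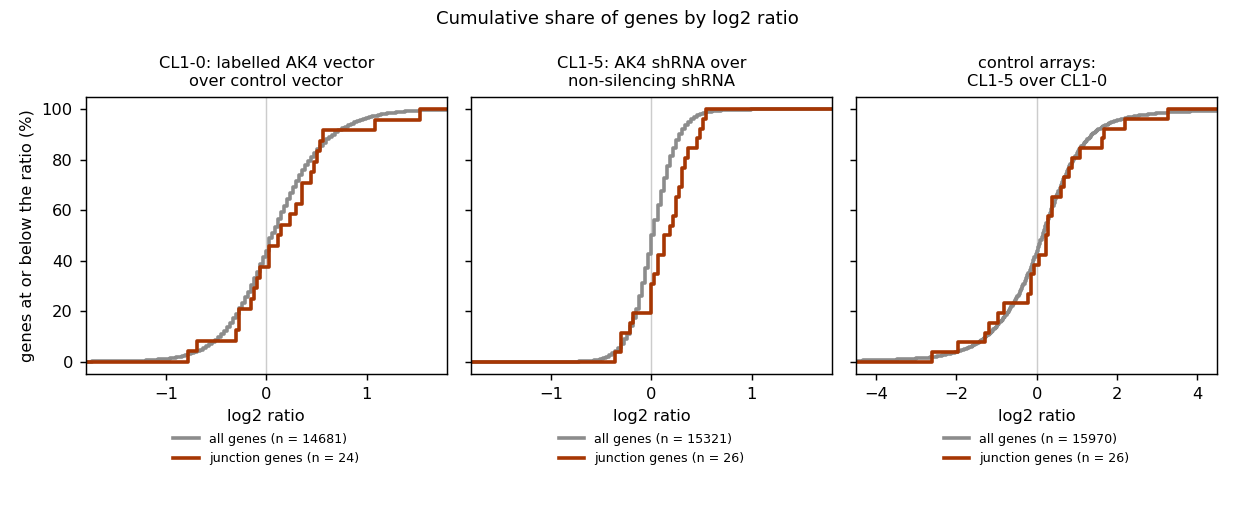
Cumulative share (%) of all measured genes (grey) and of the measured junction genes (red-brown) at or below each log2 ratio in the 3 comparisons. In the CL1-5 AK4 shRNA comparison the junction genes lie to the right of all genes over most of the range, with medians of 0.14 and 0.00, and in the comparison of the lines both curves run close together.

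Promoter sequences are shown for genes at least 2-fold apart in every pair of a CL1-5 and a CL1-0 array. These were DSG2, DSP and CRB3 on the higher side and CLDN12 and CTNNB1 on the lower. OCLN, at least 2-fold lower between the controls but not in every pair, is shown as the lower gene whose windows held the motif searched for. One of its probe sets went the other way, as given above. CLDN3, at least 2-fold higher between the controls but not in every pair, held 1 copy and is not shown. The windows are RefSeq's, in GRCh38.p14, from 250 bases before to 50 bases after an annotated start, 5′ to 3′ on the gene's strand, and PKP3 had no entry. They were searched for CACCTG on both strands (CAGGTG when read on the strand shown), the E-box that ZEB1 and the SNAI repressors are known to bind, and its copies are in capitals. The windows lie at chr18:31497927-31498226 for DSG2, chr6:7541421-7541720 for DSP, chr19:6464021-6464320 for CRB3, chr5:69492540-69492839 for the downstream OCLN start, chr7:90403211-90403510 for CLDN12 and chr3:41199255-41199554 for CTNNB1, all on the + strand.
DSG2: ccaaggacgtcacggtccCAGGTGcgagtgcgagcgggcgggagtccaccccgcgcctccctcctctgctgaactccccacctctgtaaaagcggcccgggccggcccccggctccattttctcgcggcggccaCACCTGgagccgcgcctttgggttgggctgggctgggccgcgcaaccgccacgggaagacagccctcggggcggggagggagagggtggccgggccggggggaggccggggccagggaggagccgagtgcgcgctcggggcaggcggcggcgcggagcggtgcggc
DSP: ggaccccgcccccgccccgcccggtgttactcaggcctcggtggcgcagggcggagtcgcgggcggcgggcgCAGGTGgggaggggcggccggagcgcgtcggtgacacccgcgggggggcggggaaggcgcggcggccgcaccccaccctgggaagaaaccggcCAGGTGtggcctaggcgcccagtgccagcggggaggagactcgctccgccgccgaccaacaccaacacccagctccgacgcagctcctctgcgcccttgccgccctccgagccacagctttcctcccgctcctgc
CRB3: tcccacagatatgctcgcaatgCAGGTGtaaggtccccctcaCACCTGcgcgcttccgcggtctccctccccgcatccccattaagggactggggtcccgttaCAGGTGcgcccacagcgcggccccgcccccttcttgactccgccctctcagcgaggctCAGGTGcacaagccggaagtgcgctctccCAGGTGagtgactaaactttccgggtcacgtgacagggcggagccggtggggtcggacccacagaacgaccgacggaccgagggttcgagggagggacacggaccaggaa
OCLN: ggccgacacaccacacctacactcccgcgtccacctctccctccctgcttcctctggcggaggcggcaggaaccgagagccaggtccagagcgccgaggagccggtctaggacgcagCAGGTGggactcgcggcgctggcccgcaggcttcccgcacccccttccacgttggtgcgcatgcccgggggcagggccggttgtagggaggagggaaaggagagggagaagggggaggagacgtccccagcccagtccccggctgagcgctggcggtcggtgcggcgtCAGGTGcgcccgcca
CLDN12: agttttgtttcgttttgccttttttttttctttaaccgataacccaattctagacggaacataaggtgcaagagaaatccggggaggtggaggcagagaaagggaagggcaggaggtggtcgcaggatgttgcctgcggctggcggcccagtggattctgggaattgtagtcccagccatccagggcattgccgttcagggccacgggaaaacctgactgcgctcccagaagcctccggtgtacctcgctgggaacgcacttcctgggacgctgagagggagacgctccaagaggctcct
CTNNB1: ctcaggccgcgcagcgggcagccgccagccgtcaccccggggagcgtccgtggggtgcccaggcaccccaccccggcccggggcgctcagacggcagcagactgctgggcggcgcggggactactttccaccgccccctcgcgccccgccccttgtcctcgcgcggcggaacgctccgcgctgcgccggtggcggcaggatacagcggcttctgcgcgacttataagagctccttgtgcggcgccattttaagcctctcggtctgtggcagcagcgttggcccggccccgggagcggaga

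DSG2 and DSP each held 2 copies and CRB3 held 5, whereas the windows of CLDN12 and CTNNB1 held 0. Over the list, 23 genes had 35 windows, of which 12 (34.3%) held the motif, against 20.6% of all 35116 windows. Windows with 5 or more copies made up 0.0940% of all windows, and CRB3 and 1 of the windows of CLDN7 were among them. Counted by gene, with the motif in any of its windows, 11 of 23 junction genes held it. All 4 genes at least 2-fold higher in CL1-5 that had a window were among them (CLDN3, CRB3, DSG2 and DSP). The call of CLDN3 depended on the processing. The motif was also held by 1 of 3 lower genes, OCLN, and 6 of 16 others, the dim CLDN7 and CLDN18 among them. The share by gene was not computed over all genes, and the part of the motif in the line differences was not tested. The Grainyhead motif AACCGGTT, searched the same way and a palindrome, was in 0 of the 35 windows and in 0.134% of all windows. At that share a count of 0 in 35 windows was likely in advance, so this search cannot show that Grainyhead sites are absent. A match is a description of the letters and does not show a site in use.

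Other genes of the same junctions were read from a wider list of 90 genes that holds further claudins, nectins, cadherins, polarity and scaffold proteins, and 82 of them had a probe set. In CL1-0, 1 of 62 measured genes (1.61%) passed 2-fold upward, against 3.22% of all genes, and 0 downward, against 1.16%. That gene was MICALL2, an actin-associated protein of junction trafficking, at 16.2, 34.7, 37.6 and 39.6 for a ratio of 1.10. In CL1-5, 0 of 65 passed 2-fold with AK4 shRNA, with a median of 0.03, against 0.0914% of all genes higher and 0.0131% lower. Of these 65, 35 (53.8%) had a ratio above 0 and 30 below, against 49.7% of all genes above 0, so the wider list lay closer to all genes. Between the control arrays, 15 of 66 (22.7%) passed 2-fold on the CL1-5 side and 7 (10.6%) on the CL1-0 side. The shares of all genes were 17.1% and 14.2%.

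The largest ratios on the higher side were those of CTNNAL1, a relative of alpha-catenin, at 2.98, CDH2 at no less than 2.40, CLDN6 at 2.30 and vinculin (VCL), which links junctions and focal adhesions to actin, at 2.01. VCL read 231, 181, 930 and 1095, bright on all arrays and brightest in CL1-5. On the lower side were the virus receptor and junction protein CXADR at -2.68, the polarity protein PARD6B at -2.04, the protease inhibitor SPINT2 at -1.99 and the polarity scaffold PATJ at -1.71. CXADR read 184, 120, 28.8 and 27.5, so both CL1-0 arrays exceeded both CL1-5 arrays. PATJ turned to 0.18 once _x_at and _s_at probe sets were dropped.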

How the data were processed

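RNA of 4 cultures was hybridised in 1 colour to Affymetrix arrays, and the deposited values are linear intensities, 1 per probe set and array. MAS5 is named per the submitters' processing notes, without a version, a role or a scaling target. The deposited columns shared neither median (6.07, 6.23, 15.6 and 15.3 in the order of the report) nor trimmed mean (37.5, 36.8, 68.5 and 69.4), so each array was rescaled to a common mean with 2% trimmed at each end, without 62 control probe sets. Values under the 40th percentile of all scaled values were raised to it, and log2 followed. Of 54675 probe sets, 41097 had 1 gene symbol, 1801 several and 11777 none. Symbols were updated by gene identifier for 99.9% of the named ones.

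Counts of genes at least 2-fold apart were set beside the same share of all measured genes. With 1 array a group no test was possible. The members, lists, rules and comparisons were chosen with earlier results of these data known. The named genes are the listed members and, of the wider list, the 4 largest ratios past 2-fold in each direction. Alternatives were quantile normalization, cyclic loess (limma 3.58.1, R 4.3.3), no rescaling, a floor at the 60th percentile, no floor with a pseudocount of 1, the mean of all probe sets, leaving out _x_at and _s_at probe sets, and a 1.5-fold rule. The code (Python 3.11.15) was tested on simulated data.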

Additional observations from a re-analysis of the deposited data

How the results depend on the processing

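No paired analysis was possible because each group was 1 array, and for the same reason no replicate could be left out. Of 48 recomputed counts of junction genes past 2-fold, 38 stayed within 1.5 times the value in the report and 10 did not. In CL1-0 the count of higher genes was 1 under quantile normalization, cyclic loess, the floor at the 60th percentile and when _x_at and _s_at probe sets were dropped, and 2 genes were lower with the 1.5-fold rule. Between the control arrays, values as deposited gave 14 higher and 2 lower genes, the mean of all probe sets gave 2 lower, leaving out _x_at and _s_at probe sets gave 3 higher, and the 1.5-fold rule gave 8 higher. Counts under the 1.5-fold rule follow from the wider rule, and the deposited values carry the unequal trimmed means of the arrays into each ratio. The cause of the others was not tested. No junction gene past 2-fold changed sign. On the wider list, PATJ turned to 0.18 and RBM47 to -0.22 between the control arrays when _x_at and _s_at probe sets were dropped, and RBM47 was also at -0.22 between the other pair of arrays. JUP, PKP3, CLDN3 and PKP2 have no value without such probe sets, and so left the counts made without them. Over all genes, values as deposited gave 7224 higher and 771 lower between the control arrays, against 2736 and 2272, and cyclic loess put 42.7% of those past 2-fold on the higher side. The mean of all probe sets gave 247 higher and 118 lower genes in CL1-0, against 473 and 171, 5 and 1 in CL1-5, against 14 and 2, and 2343 and 1364 between the control arrays. Dim signals limit the values of 13 members, which lay under the floor on at least 1 array.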
